A study of Mus musculus with 6 samples.

Results

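Interferon-stimulated effector genes are the genes that cells switch on when interferon reaches them. The set described here was a list of 38 gene symbols chosen for their known roles (the IFIT, Mx, and OAS families, RNA and DNA sensors, the ISG15 system, PARP9 with its partner DTX3L, interferon-inducible GTPases, and other antiviral or membrane proteins). All 38 were found once among the 25215 genes measured, and 0 were absent. Their expression was profiled in single cells of 6 mouse melanoma tumors.

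B16 is a melanoma line (B16-F10) that grows in C57BL/6 mice, and R499 is a line taken from a B16 tumor that relapsed after radiation combined with anti-CTLA4. On day 0, 50000 tumor cells were injected under the skin, and tumors were collected on day 15. The 3 conditions were B16 in untreated mice, B16 in mice that received 200 μg of anti-PD1 3 times, on day 5, day 8, and day 11 (B16PD1), and R499 in untreated mice. Each condition had 2 mice, and the tumors are named B16007, B16008, B16PD1000, B16PD1002, R499015, and R499016 after the prefixes of their cells. Several features limit the model. The mice carried tumors on both flanks, only 2 mice represent a condition, R499 is 1 derived line, and sorting for CD45-negative cells removed most immune cells, which are a main source of interferon. Full-length Smart-seq libraries were made on the ICELL8 system, in which each cell sits in a well of its own, and 0 wells were shared between tumors.

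Of 602 cells, 507 were retained with more than 1000 genes detected and less than 10% of transcripts from mitochondrial genes. These were 91 cells in B16007, 86 in B16008, 86 in B16PD1000, 88 in B16PD1002, 81 in R499015, and 75 in R499016. Values are TPM, a unit of transcript abundance corrected for transcript length. Shares of cells and levels in positive cells can still depend on length when genes are set side by side, which was not tested. TPM keeps no read depth, and the number of genes with TPM above 0 stands in for it. Its median per cell was 3647 in B16007, 3389 in B16008, 3808 in B16PD1000, 3839 in B16PD1002, 3141 in R499015, and 3682 in R499016. A gene was called detected in a cell when its TPM was above 0. Pmel, Dct, and Tyrp1, which encode a melanosome protein and enzymes of pigment synthesis, were detected in 507 of 507 cells, and their background share was not measured.

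As background, type I interferons bind the receptor chains IFNAR1 and IFNAR2, and the kinases JAK1 and TYK2 then activate transcription factors that enter the nucleus with IRF9 and bind interferon-stimulated response elements (ISRE) in promoters. Interferon gamma signals through IFNGR1, IFNGR2, JAK1, and JAK2 to gamma-activated sites (GAS) in promoters. Melanoma cells respond to both kinds by raising antiviral proteins and the machinery that presents peptides on MHC class I.

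Detection of the 38 genes across all retained cells fell into 3 classes. Basal genes, defined by detection in at least 50% of cells, numbered 3. Intermediate genes numbered 23, and rare genes, detected in fewer than 10% of cells, numbered 12. All 38 passed the filter of detection in more than 5 cells. Of all 11264 genes that passed it, 24.6% were basal, 47.6% intermediate, and 27.7% rare, beside 7.89%, 60.5%, and 31.6% of the interferon-stimulated genes. A wide gap separated the lowest basal gene, Bst2 at 65.5% of cells, from the next, Ifi35 at 38.3%, whereas the boundary at 10% ran between Irf7 at 10.5% and Dhx58 at 9.86%, whose intervals overlap.

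**Figure D1:**
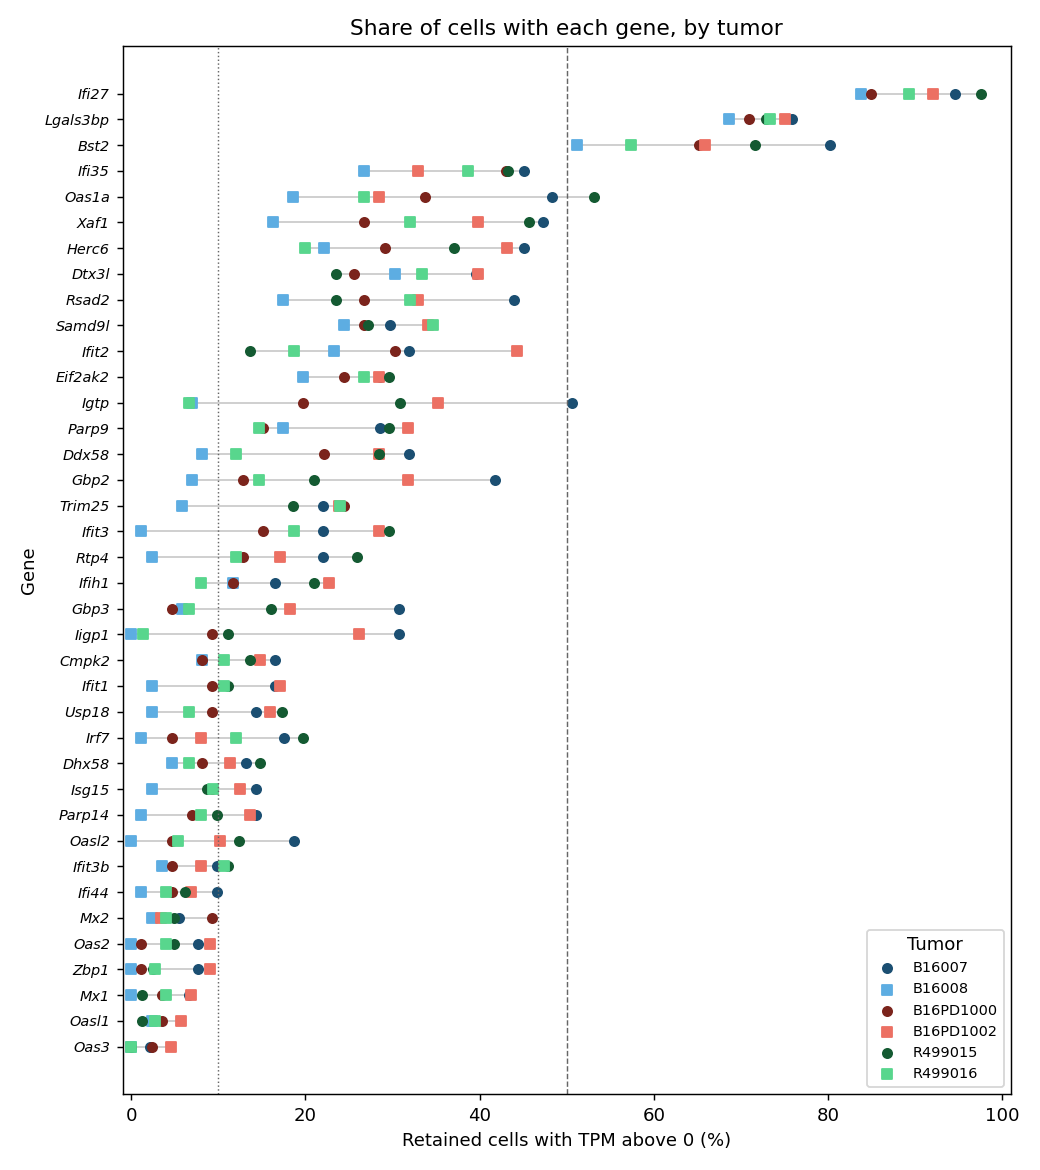
Share of retained cells with TPM above 0 (x axis, %) for each of the 38 genes (y axis, ordered by the share over all 507 cells), with 1 point per tumor and a gray line from the lowest to the highest tumor. Dashed and dotted lines mark 50% and 10%. Ifi27, Lgals3bp, and Bst2 stand right of the dashed line in all tumors, and B16008 holds the lowest share, ties included, of 30 of the 38 genes, beside 22.9% of all genes tested.

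The basal genes encode membrane or secreted proteins. Ifi27, which encodes a small membrane protein of mitochondria, was detected in 90.3% of the 507 cells (95% Wilson interval 87.5 to 92.6, counting error only, as for every interval here). By tumor its share was 94.5% in B16007, 83.7% in B16008, 84.9% in B16PD1000, 92.0% in B16PD1002, 97.5% in R499015, and 89.3% in R499016. Thus, Ifi27 was found in most cells of every tumor, with B16008 lowest and R499015 highest. Lgals3bp, which encodes a secreted glycoprotein that binds galectins, was at 75.8% in B16007, 68.6% in B16008, 70.9% in B16PD1000, 75% in B16PD1002, 72.8% in R499015, and 73.3% in R499016. Bst2, which encodes tetherin, a surface protein that holds budding viruses on the cell, was at 80.2% in B16007, 51.2% in B16008, 65.1% in B16PD1000, 65.9% in B16PD1002, 71.6% in R499015, and 57.3% in R499016. Lgals3bp therefore hardly varied, whereas Bst2 differed most within B16, between its 2 tumors.

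Ifi27 dominated the transcripts of the set. It supplied 52.9% of the summed TPM of the 38 genes, and the 3 basal genes together supplied 74.7%. In positive cells the median was 768 TPM for Ifi27, 132 TPM for Lgals3bp, and 217 TPM for Bst2. All 3 exceeded the median of 92.9 TPM over the 2776 basal genes. How far a gene was carried by few cells was measured by the share of its summed TPM that lay in the 10% of cells with most of it. This share was 29.8% for Ifi27, 46.9% for Lgals3bp, and 47.1% for Bst2, beside a median of 44.3% over all basal genes. Ifi27 was thus the most evenly spread member of the set.

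Sensors of foreign nucleic acid were intermediate or rare. Eif2ak2, which encodes the kinase PKR that halts translation on binding double-stranded RNA, was detected in 26.2% of cells and varied little, from 19.8% in B16008 to 29.6% in R499015. Ddx58, which encodes the RNA sensor RIG-I, was in 31.9% of cells in B16007, 8.14% in B16008, 22.1% in B16PD1000, 28.4% in B16PD1002, 28.4% in R499015, and 12% in R499016. Ddx58 was therefore low in B16008 and R499016 and near 30% in the higher tumor of each condition. Ifih1, which encodes the related sensor MDA5, was in 15.4% of cells, and Dhx58, which encodes LGP2, a modulator of both, was in 9.86%. Zbp1, a sensor of left-handed nucleic acid, was in 20 of 507 cells, with 7 in B16007, 0 in B16008, 1 in B16PD1000, 8 in B16PD1002, 2 in R499015, and 2 in R499016.

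The 4 IFIT genes, whose products bind viral RNA and block its translation, lie in a row on chromosome 19. Ifit2 was detected in 31.9% of cells in B16007, 23.3% in B16008, 30.2% in B16PD1000, 44.3% in B16PD1002, 13.6% in R499015, and 18.7% in R499016. Both R499 tumors were thus below the other 4 for Ifit2. Ifit3 was in 22.0% of cells in B16007, 1.16% (1 cell) in B16008, 15.1% in B16PD1000, 28.4% in B16PD1002, 29.6% in R499015, and 18.7% in R499016. Ifit3 was therefore low in B16008 alone. Ifit1 was in 11.2% of cells and Ifit3b in 7.89%. Reads of Ifit3 and Ifit3b are hard to separate, as 51.2% of the stretches of 50 bases in Ifit3 transcripts also occur in Ifit3b, so the split between this pair is uncertain.

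Among the OAS genes, which encode enzymes or relatives of enzymes that make the 2'-5' oligoadenylate signal for RNA decay, Oas1a stood apart. Its share was 48.4% in B16007, 18.6% in B16008, 33.7% in B16PD1000, 28.4% in B16PD1002, 53.1% in R499015, and 26.7% in R499016. In B16 and in R499, Oas1a thus had a high and a low tumor, and both B16PD1 tumors lay between them. Of its stretches of 50 bases, 57.6% are shared with Oas1g, so its level may hold reads of that copy. The other 4 were rare: Oasl2 in 8.68% of cells, Oas2 in 4.54%, Oasl1 in 2.96%, and Oas3 in 1.58% (8 cells, interval 0.802 to 3.08). Oas2 was found in 7 cells in B16007, 0 in B16008, 1 in B16PD1000, 8 in B16PD1002, 4 in R499015, and 3 in R499016. Oasl1 was found in between 1 cell (R499015) and 5 cells (B16PD1002) of every tumor. For Oas2 the conditions overlapped, whereas for Oasl1 both B16PD1 tumors, with 3 and 5 cells, were above the other 4, by few cells. Oas3 was found in 2 cells of B16007, 2 of B16PD1000, and 4 of B16PD1002, and in 0 of 86 cells of B16008, which allows detection in up to 3.49% (3 cells of the total, the limit used for every count of 0 here in place of a Wilson interval). In R499015 (0 of 81 cells) and R499016 (0 of 75 cells) up to 3.70% and 4% remain possible.

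Mx1 and Mx2 encode dynamin-like GTPases that trap viral components, and RefSeq lists both as transcribed pseudogenes in the C57BL/6 genome. Mx2 was in 25 cells, 8 of them in B16PD1000, and Mx1 in 19 cells, with 6 in B16007, 0 in B16008, 3 in B16PD1000, 6 in B16PD1002, 1 in R499015, and 3 in R499016. Rsad2, which encodes viperin, an enzyme that makes a chain-terminating nucleotide, was in 29.6% of cells. Its share was 44.0% in B16007, 17.4% in B16008, 26.7% in B16PD1000, 33.0% in B16PD1002, 23.5% in R499015, and 32% in R499016, so that the tumors of B16 enclosed those of the other conditions. Cmpk2, its neighbor on chromosome 12, which encodes a mitochondrial nucleotide kinase, was in 12%.

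The ISG15 system attaches and removes the ubiquitin-like protein ISG15. Its ligase Herc6 was the most widely detected of this group. Herc6 was in 45.1% of cells in B16007, 22.1% in B16008, 29.1% in B16PD1000, 43.2% in B16PD1002, 37.0% in R499015, and 20% in R499016. Isg15 itself was in only 9.47% of cells, although its median in positive cells, 60.9 TPM, exceeded the 23.8 TPM of Herc6. Trim25, a ubiquitin ligase that acts on RIG-I, was in 19.7% of cells, and Usp18, which removes ISG15 and dampens the receptor, in 11.0%. Trim25 was low only in B16008, at 5.81%, and lay between 18.5% and 24.4% in the other tumors.

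Dtx3l and Parp9 encode a ubiquitin ligase and its ADP-ribosyltransferase partner, and their genes overlap head to head on chromosome 16. Dtx3l was in 39.6% of cells in B16007, 30.2% in B16008, 25.6% in B16PD1000, 39.8% in B16PD1002, 23.5% in R499015, and 33.3% in R499016. Parp9 was in 23.1% of cells and Parp14, a larger relative, in 9.07% with a low median of 9.61 TPM in positive cells. Reads in the overlap of Parp9 and Dtx3l cannot be assigned without strand. Of the remaining genes, Ifi35 was in 38.3% of cells, Xaf1, which encodes an antagonist of the apoptosis inhibitor XIAP, in 34.7%, Samd9l, a restriction factor, in 29.4%, Rtp4 in 15.4%, and Ifi44 in 5.52%. The share of Ifi35 was 45.1% in B16007, 26.7% in B16008, 43.0% in B16PD1000, 33.0% in B16PD1002, 43.2% in R499015, and 38.7% in R499016. Xaf1 was in 47.3% of cells in B16007, 16.3% in B16008, 26.7% in B16PD1000, 39.8% in B16PD1002, 45.7% in R499015, and 32% in R499016. Both were lowest in B16008 and highest in B16007. Samd9l stayed within a narrow range, with 29.7% in B16007, 24.4% in B16008, 26.7% in B16PD1000, 34.1% in B16PD1002, 27.2% in R499015, and 34.7% in R499016.

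The interferon-inducible GTPases attack the vacuoles of intracellular pathogens, and Igtp and Gbp2 had the widest ranges of share over tumors among the 38 genes. Of the stretches of 50 bases in Igtp transcripts, 11.8% are shared with Irgm2, so the share of Igtp may hold reads of that gene. Igtp was detected in 50.5% of cells in B16007 (interval 40.5 to 60.6), 6.98% in B16008 (3.24 to 14.4), 19.8% in B16PD1000, 35.2% in B16PD1002, 30.9% in R499015, and 6.67% in R499016. Gbp2, a guanylate-binding protein, was in 41.8%, 6.98%, 12.8%, 31.8%, 21.0%, and 14.7% of cells in the same order. In both genes B16007 was highest and the intervals of B16007 and B16008 did not overlap. Iigp1 was in 30.8% of cells in B16007, 9.30% in B16PD1000, 26.1% in B16PD1002, 11.1% in R499015, 1.33% in R499016, and 0 of 86 cells in B16008. Gbp3 was in 30.8% of cells in B16007 and between 4.65% and 18.2% in the others. At least 1 of the 4 GTPases was detected in 74.7% of cells in B16007, 17.4% in B16008, 33.7% in B16PD1000, 56.8% in B16PD1002, 49.4% in R499015, and 20% in R499016. Within each condition, therefore, the tumors differed more than the conditions did.

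Irf7, the transcription factor that amplifies the type I response, was detected in 17.6% of cells in B16007, 1.16% in B16008, 4.65% in B16PD1000, 7.95% in B16PD1002, 19.8% in R499015, and 12% in R499016. Its positive cells held a median of 58.8 TPM. Both B16PD1 tumors were below both R499 tumors for Irf7, and the B16 tumors lay far apart, with B16008 the lowest of all.

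Rare members were expressed at moderate level where they were found. Over the 12 rare genes, the median level in positive cells had a median of 33.2 TPM, beside 15.9 TPM over the 3125 rare genes tested, and Zbp1 was highest at 77.0 TPM. Over the 23 intermediate genes it was 27.7 TPM, beside 24.4 TPM over 5363. The top 10% of cells held a median of 87.5% of the summed TPM of intermediate genes, beside 83.1% over all intermediate genes, and it is 100% for any rare gene by construction. Among the intermediate genes this share ran from 63.6% for Ifi35 and 64.2% for Oas1a, the most evenly spread, to 99.8% for Irf7.

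Very low shares need a reference. Cd79a, a B cell receptor gene that melanoma cells should lack, was detected in 5.13% of cells (interval 3.52 to 7.41), between 3.49% and 6.98% by tumor, with a median of 19 TPM in positive cells. The shares of 6 members (Mx2, Oas2, Zbp1, Mx1, Oasl1, and Oas3) were at or below this level, so their share alone does not tell expression from background.

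Cells were ranked within each tumor by the mean log2(TPM + 1) of the other members, and the top 10% were taken. For the 12 rare members the share of positive cells in the top group had a median of 41.3% and ran from 31.6% for Mx1 to 59.1% for Oasl2. The same share had a median of 14.3% over 3113 other rare genes, of which the central 90% lay between 0% and 33.3%, a range that includes Mx1. For the 23 intermediate members the median was 23.1%, beside 13.9% over 5340 other intermediate genes. Ifit2 was lowest among these, at 12.9%. Ifi44, whose product forms part of the antiviral response, had 16 of its 28 positive cells (57.1%) in the top group, and Oas3 had 4 of 8. Rare members were hence found in member-rich cells more often than other rare genes were. More genes were detected in those cells, with a median of 4379 genes in cells with Oasl2 and 3445 in cells without it, and the part of depth in this difference was not tested.

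Each cell expressed a median of 7 of the 38 genes (quartiles 4 and 11), and 4 cells expressed 0. The median was 9 in B16007, 5 in B16008, 7 in B16PD1000, 8 in B16PD1002, 9 in R499015, and 6 in R499016. The upper quartile was 13 in B16007, 7 in B16008, 10 in B16PD1000, 11.3 in B16PD1002, 13 in R499015, and 10 in R499016. B16008 was lowest on both measures, and its richest cell had 13 members, whereas the richest cell of B16PD1002 had 37. The number of members followed the number of genes detected, with a Spearman correlation over the cells of a tumor between 0.668 (B16007, n = 91 cells) and 0.762 (B16008, n = 86 cells). R499015 nevertheless combined a median of 9 members with the fewest genes detected.

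**Figure D2:**
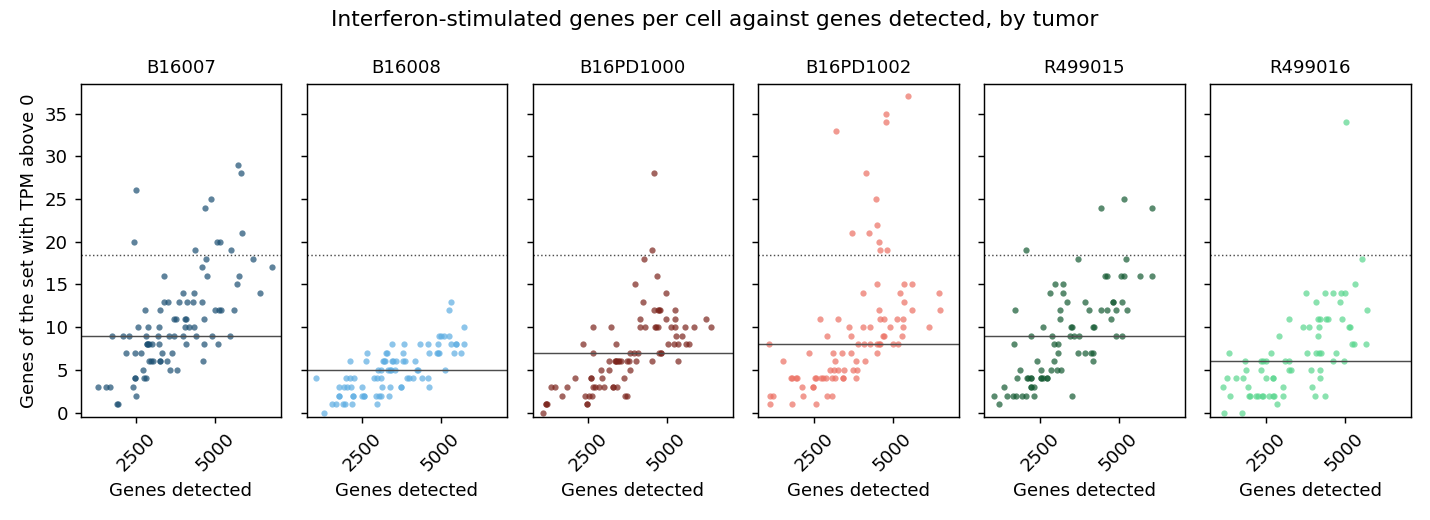
Number of the 38 genes with TPM above 0 in a cell (y axis) against the number of genes detected in that cell (x axis), with 1 point per retained cell and 1 panel per tumor. Solid lines mark the median number of members of the tumor (9, 5, 7, 8, 9, and 6 from left to right), and cells above the dotted line have 19 or more members (11, 0, 2, 12, 4, and 1 cells).

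A small group of cells expressed many members at once. Cells with 19 or more of the 38 genes, a limit set after the counts per cell were seen, numbered 30 of 507 (5.92%, interval 4.18 to 8.32). They were 11 of 91 cells in B16007 (12.1%, 6.89 to 20.4), 0 of 86 in B16008, 2 of 86 in B16PD1000 (2.33%, 0.640 to 8.09), 12 of 88 in B16PD1002 (13.6%, 7.98 to 22.3), 4 of 81 in R499015 (4.94%, 1.94 to 12), and 1 of 75 in R499016 (1.33%, 0.236 to 7.17). B16007 and B16PD1002 thus held most of the 30, and each condition had both a tumor with more and a tumor with fewer of them. Every melanocyte marker listed other than Sox10 was detected in 29 of the 30, but nearly all retained cells have these markers, so they do not tell a single cell from a doublet. The median number of genes detected was 4646 in them and 3447 in the other 477 cells. Doublets were not called.

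Some genes that did not define these cells were also higher in them, and others were not. Irf9 was detected in 83.3% of them and in 23.7% of the other cells, and B2m, the light chain of MHC class I, had a mean of 6817 TPM and 2402 TPM. Jak2 was in 10% and 8.60%, and Socs1, a feedback inhibitor, in 0 of 30 and 5 of 477. These are descriptions of cells chosen by members, with no test.

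The conditions were compared over tumors, with the mean log2(TPM + 1) of a tumor as its value and limma fitted to all 11264 genes. In such means, fewer positive cells and less RNA in a cell cannot be told apart. For B16PD1 minus B16, which asks what anti-PD1 changed by the day of harvest, 0 of 38 members passed an adjusted p of 0.05, and 0 of 11264 genes did (0%). At an unadjusted p under 0.05 the counts were 0 members and 4.69% of all genes. The median difference over the members was 0.06, and over all genes it was 0.01. Groups did not overlap for 2 members higher in B16PD1 (Mx2 and Oasl1, beside 17.9% of all genes) and 0 lower (15.4% of all genes).

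The smallest p-values of this contrast belonged to Oasl1, Mx2, and Ifit2. Oasl1 had levels of 0.13 in B16007, 0.07 in B16008, 0.24 in B16PD1000, and 0.28 in B16PD1002 on the log2 scale, a difference of 0.16 ± 0.08 (SE, limma adjusted p = 0.989). Mx2 differed by 0.17 ± 0.10 (limma adjusted p = 0.989, and 0.07 without B16PD1000), and its levels were 0.23 and 0.11 in B16 and 0.44 and 0.24 in B16PD1. The levels of both genes were ordered by condition, by small steps at low levels on this scale. For Mx2, B16007 (0.23) and B16PD1002 (0.24) all but touched. Its share of cells had the other order there, with 5.49% in B16007 and 3.41% in B16PD1002. The size depended on the scale, since with the log2 of the mean TPM the differences were 2.40 for Oasl1 and 1.53 for Mx2. On that scale 0 members passed the adjusted threshold in limma. A mean TPM can rest on single cells. The highest cell held 1304 TPM for Oasl1 and 556 TPM for Mx2, beside medians in positive cells of 34.3 TPM and 28.25 TPM. The larger differences are therefore not better estimates. Ifit2 was at 1.30 and 1.10 in B16 and 1.27 and 2.09 in B16PD1, which overlap (difference 0.48 ± 0.29, limma adjusted p = 0.989, and 0.07 without B16PD1002).

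For R499 minus B16, which compares the relapsed line with its parent, 0 of 38 members passed an adjusted p of 0.05, beside 0.0621% of all genes (7 genes). An unadjusted p under 0.05 was reached by 1 member, Ifit3, beside 10.5% of all genes. Levels of Ifit3 were 1.18 in B16007, 0.07 in B16008, 1.68 in R499015, and 1.04 in R499016, so the groups overlapped (difference 0.73 ± 0.34, limma adjusted p = 0.469). Ifit3 rested on the low B16008, since its difference was 0.18 without B16008 and 1.29 without B16007. Ifi27 was at 9.20 in B16007, 7.39 in B16008, 10.01 in R499015, and 8.37 in R499016, and the lower R499 tumor stood below the higher B16 tumor (difference 0.90 ± 0.51, limma adjusted p = 0.557, and -0.0080 without B16008). Ifit2 was lower in R499 without overlap, at 0.62 and 0.82 beside 1.30 and 1.10 (difference -0.48 ± 0.29, limma adjusted p = 0.576, and 0.17 when the log2 was taken of the mean TPM). It was the only member lower without overlap (30.1% of all genes), and Ifit3b the only member higher (11.6% of all genes), although its R499 tumors (0.55 and 0.55) all but touched B16007 (0.55). The median difference was 0.03 over members and -0.07 over all genes.

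For R499 minus B16PD1, which shares the R499 and B16PD1 tumors with the other contrasts, 0 of 38 members passed an adjusted p of 0.05, beside 0.071% of all genes (8 genes). Unadjusted p-values under 0.05 belonged to 2 members, Ifit2 and Irf7, beside 10.2% of all genes. Ifit2 differed by -0.96 ± 0.29 (limma adjusted p = 0.314, and -0.55 without B16PD1002), with both R499 tumors below both B16PD1 tumors. Irf7, at 0.23 and 0.48 in B16PD1 and 1.16 and 0.74 in R499, differed by 0.59 ± 0.25 (limma adjusted p = 0.450, and 0.38 without R499015). Ifi27 differed by 1.02 ± 0.51 (limma adjusted p = 0.504), with 7.85 and 8.50 in B16PD1 and overlap with R499, and this difference was 0.20 without R499015 and 1.84 without R499016. Without overlap, 3 members were higher in R499 (Ifit3b, Irf7, and Lgals3bp, beside 10.2% of all genes) and 6 lower (Ifit2, Isg15, Mx1, Mx2, Oas3, and Oasl1, beside 31.3%).

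The contrasts with B16 rested on which B16 tumor was present. Without B16007, the median difference of the members in B16PD1 minus B16 was 0.43, and without B16008 it was -0.29. The same held for R499 minus B16, with 0.41 when B16007 was left out and -0.22 when B16008 was. In R499 minus B16PD1 it was -0.05 with all tumors, 0.15 without B16PD1002, and -0.18 without B16PD1000. With genes detected as a covariate the 3 medians were -0.15, 0.44, and 0.66 in the order of the contrasts above.

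Differences between tumors of the same condition were wide, and they had the same direction in most members. All 38 members had a higher level in B16007 than in B16008, beside 59.5% of all genes, and the median difference was 0.76 (0.06 over all genes). In B16PD1, 2 of 38 members were higher in B16PD1000 than in B16PD1002, with a median difference of -0.36 (0.02 over all genes), beside 52.8% of all genes. In R499, 29 of 38 members were higher in R499015 than in R499016, with a median difference of 0.24 (-0.04 over all genes), beside 42.9% of all genes. Without the 30 cells that had 19 or more members, 35 of 38 were higher in B16007, 26 of 38 in R499015, but 21 of 38 in B16PD1000, with a median difference of 0.05. These cells were chosen for their members, and B16PD1002 had 12 of them and B16PD1000 2, so leaving them out lowers B16PD1002 by construction.

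Both the share of cells and the amount per positive cell differed within B16. Of 20 members with at least 5 positive cells in both B16 tumors, 20 had a higher share in B16007 (65.1% of 8951 genes) and 18 a higher median TPM in positive cells (43.3% of these genes). In B16PD1, 3 of 27 such members had a higher share in B16PD1000 (53.3% of 9054 genes) and 6 a higher amount (49.9%). In R499, 22 of 29 had a higher share in R499015 (41.8% of 8490 genes), yet only 13 a higher amount (48.1%). Amounts in R499 thus went both ways, with a median in positive cells of 1270 TPM and 644 TPM for Ifi27 and of 46.1 TPM and 84.6 TPM for Irf7 in R499015 and R499016. A low amount can itself lower the share of cells detected, and the effects were not separated.

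Immune transcripts were scarce, with higher sums in 1 tumor each of B16 and B16PD1. Of 16 immune markers, 11 were detected in any cell, Ptprc, which encodes CD45, in 1 cell, and Cd3d, Cd8a, Nkg7, and Ms4a1, among others, in 0 of 507 cells, which allows up to 0.592%. Their summed mean level was 207 TPM in B16007, 13.2 in B16008, 22.4 in B16PD1000, 233 in B16PD1002, 9.38 in R499015, and 7.31 in R499016. Lyz2, a lysozyme of macrophages, was the most abundant, in 2.76% of cells, and the sum in B16007 came from few cells (Lyz2 in 2 and Tyrobp in 3 of 91). In R499 the sums were close. The list was thus highest in the same tumors as the cells with many members, although it stayed low. Without the 12 cells that had at least 2 immune markers, 37 of 38 members were higher in B16007 than in B16008, 3 of 38 in B16PD1000 than in B16PD1002, and 27 of 38 in R499015 than in R499016. Of the 30 cells with many members, 4 had at least 2 immune markers. Other lists were near 0. Of 6 fibroblast markers 4 were detected, with Dcn the most abundant (1.18% of cells) and Col1a1 and Pdgfra at 0 cells. Of 5 endothelial markers 3 were detected, with Vwf in 2.56% of cells and Cdh5 and Kdr at 0. The 3 keratinocyte markers were at 0. Summed levels of fibroblast markers ran from 0 TPM in B16008 to 2.64 TPM in R499015, and of endothelial markers from 0.0290 TPM in B16008 to 2.30 TPM in R499015. The 7 melanocyte markers summed to between 14048 TPM in B16PD1000 and 17188 TPM in R499015.

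The interferons themselves were not seen in these cells. All 12 ligand genes listed, Ifnb1, Ifng, and Ifna1 among them, were at 0 in 507 of 507 cells, which allows a share of up to 0.592% for each. Of 15 receptors and signaling genes, 15 were detected and 14 tested. Irf9 was in 45.1% of cells in B16007 and 15.1% in B16008, whereas Stat2 was in only 7.30% of all cells. The receptor chains Ifnar1 (47.5%), Ifnar2 (52.1%), Ifngr1 (33.5%), and Ifngr2 (59.6%) were detected in every tumor. Socs1 was in 5 cells.

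None of the 14 tested regulators passed an adjusted p of 0.05 in limma in any of the 3 contrasts, and 0 of 10 MHC class I presentation genes did. At an unadjusted p under 0.05, Ifnar1 was lower in R499 than in B16, Irf1, a transcription factor of the gamma response, was lower in R499 than in B16PD1, and Nlrc5, the transactivator of MHC class I, was higher in R499 than in B16. These are 1 of 14, 1 of 14, and 1 of 10 genes, no more than the 10.5% and 10.2% of all genes in those contrasts. In B16PD1 minus B16, 0 of either list did. The summed level of the MHC class I list was 5409 TPM in B16007, 1439 in B16008, 1825 in B16PD1000, 3529 in B16PD1002, 4881 in R499015, and 2409 in R499016. The order within each condition was that of the interferon-stimulated genes.

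Covariation was measured by the Spearman correlation over the cells of a tumor, averaged over the 6 tumors, for the 325 pairs of the 26 members detected in at least 10% of cells. The points of each correlation are 75 to 91 cells, which share their tumor and differ in genes detected. The median over pairs was 0.150 (quartiles 0.110 and 0.195), beside 0.0653 over 33117591 pairs of all 8139 genes at that share. A mean correlation above 0.2 was found in 22.8% of member pairs and 0.550% of all pairs. After regression on the genes detected in a cell, the medians were 0.104 and 0.00150. Without the 30 cells with many members, the median over member pairs was 0.0791 for the 21 members that still reached 10%, and leaving out the most member-rich cells lowers it by construction. Members thus varied together, weakly in any pair.

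**Figure D3:**
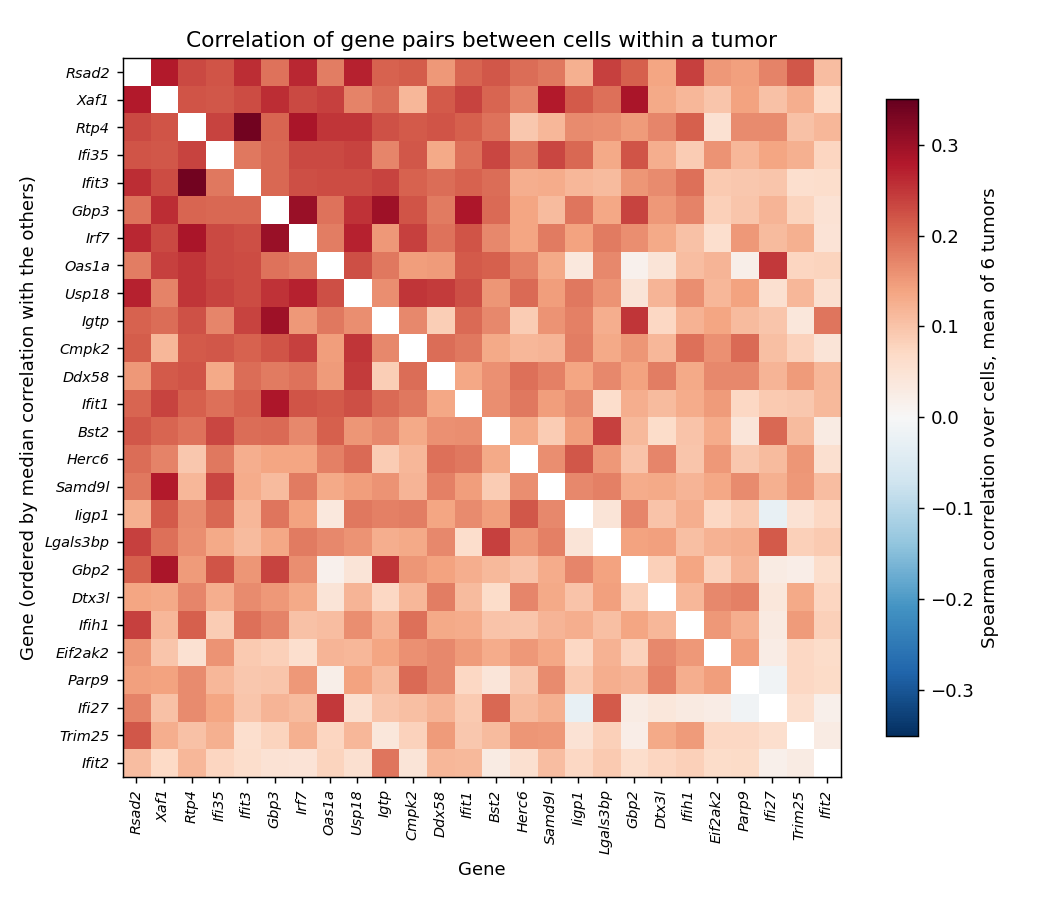
Spearman correlation between cells for each pair of the 26 members detected in at least 10% of cells (both axes, same order, from the gene with the highest median correlation with the others to the lowest), with color for the mean over 6 tumors and the diagonal left blank. Rsad2, Xaf1, and Rtp4 lead with medians of 0.206, 0.205, and 0.204, and Ifit2 is last at 0.0711.

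The correlation of members differed between tumors. The median over pairs was 0.134 in B16007, 0.0155 in B16008 (300 pairs, as Iigp1 was at 0), 0.112 in B16PD1000, 0.302 in B16PD1002, 0.135 in R499015, and 0.144 in R499016. B16PD1002, with the most cells of many members, was highest, and B16008 was lowest. In B16008, however, several members were in few cells (Ifit3 and Irf7 in 1, and Ifit1, Usp18, and Rtp4 in 2 of 86). Genes with so few positive cells can show little covariation. The low median of B16008 therefore does not tell weak coordination from a lack of detection. The other 4 tumors lay close together.

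Over all 6 tumors the highest mean was that of Ifit3 with Rtp4, at 0.337 (0.0491 in R499016 to 0.711 in B16008, the latter from 1 cell with Ifit3), and 37 cells had both. This rank depended on B16008: without it, an alternative chosen after seeing the data, Ifit3 with Rtp4 was at 0.262 (rank 36) and Gbp3 with Irf7 was first at 0.366. Rtp4, which encodes a protein of receptor transport, shares 11.6% of its stretches of 50 bases with Gm45338. Next over the 6 tumors came Gbp3 with Irf7 at 0.301 (-0.0269 to 0.568), Igtp with Gbp3 at 0.298 (0.107 to 0.440), Xaf1 with Gbp2 at 0.286 (0.109 to 0.517), and Rtp4 with Irf7 at 0.285 (-0.0167 to 0.491). Igtp with Gbp3 and Xaf1 with Gbp2 were above 0.1 in each of the 6 tumors. None of these 5 pairs are neighbors on a chromosome.

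Role and position were compared over the same pairs. The 26 pairs of the same role had a median of 0.199, and the 299 pairs of different roles 0.145. Pairs of GTPases had a median of 0.212 (6 pairs), GTPases with other members 0.141 (88 pairs), and the remaining pairs 0.149 (231 pairs). The 6 pairs within 200 kb of each other had a median of 0.191, and the others 0.149. All 6 are also pairs of the same role, so position and role cannot be told apart here. At the median, GTPases thus varied together more than they varied with other members, and the latter value was close to that of the remaining pairs. Yet Gbp3, Gbp2, and Iigp1 each had their highest correlation outside the GTPases (with Irf7, Xaf1, and Herc6), and only Igtp had it inside (with Gbp3). GTPases are known as targets of interferon gamma, whose part was not tested. The members least tied to the rest were Ifit2 (0.0711), Trim25 (0.0935), and Ifi27 (0.103). After regression on genes detected, Ifit2 was again last (0.0313), but Ifi27 (0.0994) stood above Eif2ak2 (0.0512), Parp9 (0.0536), and Trim25 (0.0616).

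Genes outside the set were ranked by their mean correlation with the mean log2(TPM + 1) of the 26 members. Among the first 10 of 8113 were Ifitm3 (0.455), B2m (0.403), Irgm1 (0.383), Psme2 (0.375), H2-D1 (0.363), Lgals9 (0.348), Trim30a (0.348, over 5 tumors), Tgtp2 (0.346), and Ifi47 (0.345). The median over all genes ranked was 0.150. With genes detected regressed out, Ifitm3 was at 0.454, Irgm1 at 0.385, and B2m at 0.381, and Tgtp2 at 0.260. Among listed regulators Irf9 ranked 61 (0.290, and 0.181 after that regression), Irf2 181 (0.265 and 0.0564), Jak1 198 (0.263 and 0.0234), and Irf1 5390. The values of Irf2 and Jak1 were thus near 0 after it.

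Promoter sequences, taken from RefSeq on GRCm38.p6 as 250 bases before to 50 bases after a start, were matched by symbol for 27 of the 38 members. The ISRE core, GAAANNGAAA on either strand, was in 14 of the 27 (51.9%), beside 3.99% of 27025 genes with a promoter. The GAS letters, TTCNNNGAA, which read the same on both strands, were in 6 (22.2%), beside 9.55% of genes, and can overlap an ISRE. By class the ISRE core was in 1 of 2 basal, 10 of 19 intermediate, and 3 of 6 rare members, and the GAS letters in 1 of 2, 5 of 19, and 0 of 6, which are few genes for a comparison of classes. Both motifs were in 4 members and neither in 11. Of 22 ISRE matches, 19 lay in the 200 bases before the start. A match is a description of letters and not a bound site.

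Windows of 60 bases before the start are printed for 7 members whose windows lie outside annotated exons, to show how the core is arranged. The windows of Oas3 and Rsad2, which also hold a core outside exons, are not printed. Capitals mark each ISRE core that lies whole in the window, on the strand of the gene or on the opposite strand. The windows are Bst2 at chr8:71537562-71537621 (minus strand), Isg15 at chr4:156200850-156200909 (minus), Oas1a at chr5:120907526-120907585 (minus), Igtp at chr11:58199496-58199555 (plus), Ifit1 at chr19:34640779-34640838 (plus), Ifit3 at chr19:34583382-34583441 (plus), and Ifit3b at chr19:34607778-34607837 (plus).
Bst2: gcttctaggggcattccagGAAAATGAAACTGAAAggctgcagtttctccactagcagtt
Isg15: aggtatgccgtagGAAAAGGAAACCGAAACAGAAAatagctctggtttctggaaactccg
Oas1a: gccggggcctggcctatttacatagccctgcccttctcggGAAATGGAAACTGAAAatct
Igtp: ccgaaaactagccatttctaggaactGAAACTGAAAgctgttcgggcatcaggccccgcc
Ifit1: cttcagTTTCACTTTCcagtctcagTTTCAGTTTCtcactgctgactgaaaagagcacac
Ifit3: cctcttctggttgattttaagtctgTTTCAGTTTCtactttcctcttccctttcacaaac
Ifit3b: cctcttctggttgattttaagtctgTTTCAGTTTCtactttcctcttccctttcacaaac
Ifit3 and Ifit3b were identical at 60 of 60 bases in this window. Each has another core upstream that the window cuts off, at bases -156 to -147 from the start in Ifit3 and -188 to -179 in Ifit3b. Ifit3 was detected in 19.1% of cells and Ifit3b in 7.89%, but the split of reads between this pair is uncertain. Isg15 and Bst2 both carried overlapping cores, and Bst2 was detected in 65.5% of cells and Isg15 in 9.47%.

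Members were also close in the genome. The Ifit genes lie between 34550694 and 34650009 on chromosome 19 of GRCm38, Oas1a, Oas2, and Oas3 between 120730333 and 120907521 on chromosome 5, Mx1 and Mx2 on chromosome 16, Gbp2 and Gbp3 on chromosome 3, and Rsad2 and Cmpk2 on chromosome 12, 12752 bases apart. Neighbors differed widely in share, as Oas2 (4.54%) and Oas3 (1.58%) lie within 200 kb of Oas1a (34.9%).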

How the data were processed

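Cells came from 6 tumors, and a cell was assigned to a tumor by its column prefix, with 0 columns left unused. Per the labels, the authors aligned reads with STAR and quantified them with RSEM on mm10, and versions and annotation are not given in the sources used here. The authors deposited TPM per gene and cell, with 1 common sum for all cells, so depth in reads is unknown. Cells with more than 1000 genes and under 10% mitochondrial TPM were retained, and genes detected in more than 5 of them were tested. The value of a tumor was the mean of log2(TPM + 1), on which differences of low genes are understated. Contrasts were fitted to 6 tumors with limma 3.58.1 (R 4.3.3, eBayes with trend, two-sided, Benjamini-Hochberg, threshold 0.05). Since each group has 2 mice, p-values measure the spread between these mice. Correlations and shares used Python 3.11.15, numpy 2.4.6, pandas 2.3.3, and scipy 1.17.1, and plots matplotlib 3.10.9. Steps were tested on simulated data.

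The members and lists were chosen with earlier results of these data known. Values are given for the 10 members with the highest share, the 5 with the lowest, 3 per contrast by unadjusted p, the 5 highest pairs, and examples by role. Further members, the gene Cd79a, and the limit of 19 members were picked after their values were seen. Positions are from GENCODE M21 (GRCm38). Variant calls and subclones were not analysed here.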

Additional observations from a re-analysis of the deposited data

How the results depend on the processing

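No paired analysis was possible because the columns of cells carry tumor numbers and not the replicate numbers of the labels, and the replicate block was not run. Under all 18 alternatives (other pseudocounts, filters, centering, a covariate, no trend, without cells with immune markers, and each tumor left out), 0 members passed in each of the 3 contrasts with limma. Leaving out a tumor leaves a lone tumor that is assumed to vary like the others. Members at an unadjusted p under 0.05 numbered up to 16 in B16PD1 minus B16 (beside 652 of 11051 genes) and 13 in R499 minus B16 (997 of 11051), both without B16007, and 7 in R499 minus B16PD1 with genes detected as a covariate (604 of 11264). Over all genes, calls ran from 0 to 2 (0 in the analysis reported) in B16PD1 minus B16, from 0 to 28 (7) in R499 minus B16, and from 0 to 22 (8) in R499 minus B16PD1. Subtracting the mean of each cell moved the median of all genes from -0.07 to 0.03 in R499 minus B16 and from -0.09 to 0.05 in R499 minus B16PD1, and the median of members in the latter turned from -0.05 to 0.09.

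Ifi27 in R499 minus B16 turned to -0.0080 without B16008 and was 1.80 without B16007, and Ifit2 in that contrast to 0.17 with the log2 of mean TPM. These 2 of 160 values of named members changed direction, and 0 passed the threshold. Tumors left out in turn gave 3 to 3 basal members, 8 (without B16008) to 14 rare members, medians of 6 to 8 members per cell, and a median pair correlation of 0.119 to 0.176. With TPM above 10 in place of above 0, a cell had a median of 6 members, and 18 members were rare. The count of 2 members higher in B16PD1000 became 21 without cells with 19 or more members. Alternatives without these cells, those on members in 10% to 50% of cells (median correlation 0.152, beside 0.0685 over all pairs), and those on tumors of a condition were chosen after seeing the data.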

Other observations

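The cells richest in members are listed by value. The 5 richest had 37, 35, 34, 34, and 33 of the 38 genes, and 4 of them came from B16PD1002 and 1 from R499016. Their summed TPM over the members was 13172, 6448, 7113, 9651, and 13079, beside a mean of 1656 over all retained cells. The fifth had 3201 genes detected, fewer than the median of all retained cells, and 0 immune markers. A cell of B16007 with 28 members had 8 of 16 immune markers and 6 of 7 melanocyte markers.

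In the 30 cells with 19 or more members, Trim30a was detected in 73.3% and in 7.34% of the other cells, Ifi47 in 76.7% and 21.6%, and Tap1, the peptide transporter of the MHC class I pathway, in 30% and 3.77%. Receptor genes differed less, with Ifnar1 in 66.7% and 46.3% and Ifngr1 in 40% and 33.1%, between cells whose median number of genes detected was 4646 and 3447.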
